A study of Mus musculus with 9 samples.

Results

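The genes of the Nr4a orphan nuclear receptors (Nr4a1, Nr4a2, Nr4a3) and of the Egr zinc finger factors (Egr1, Egr2, Egr3) were followed through ATAC-seq peak lists of mouse lung endothelium at 3 ages. ATAC-seq marks stretches of DNA that a transposase can enter, and the lists give the stretches called as peaks. The 6 genes were taken by name from 21883 protein-coding genes of the mm10 build. Peaks centred inside a gene body were given to that gene, and other peaks to the gene end closest to them, up to 100 kb away. The 6 genes held 253 of 664417 peaks summed over the libraries. Overlapping peaks of different libraries (1 bp or more in common) were merged into 126907 regions, and 36 of these belonged to the 6 genes. All 6 passed the filter for testing, a mean of at least 1 peak per library, as did 14448 genes in all.

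The cells were lung endothelial cells obtained by fluorescence-activated sorting, and infant, young adult and mature adult mice gave 3 libraries per age. The labels give no strain, sex, treatment or age in days, and no sort markers. Nor do they tell whether replicate libraries stem from different animals, and the p-values measure no more than the spread between these libraries.

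Nr4a and Egr genes are immediate early genes, which are switched on within minutes of a stimulus from proteins already present in the cell. Growth factors, calcium and cyclic AMP reach them through the factors SRF, its Elk partners and CREB, and in endothelium VEGF, thrombin and flow are known stimuli. The NR4A proteins bind DNA as orphan nuclear receptors with no known hormone, the EGR proteins bind GC-rich sites, and NAB proteins repress EGR activity.

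The lists were shorter in adults. They held 88856 to 94646 peaks in infant, 67550 to 68366 in young adult and 59793 to 64208 in mature adult libraries, and covered 47.3 to 53.4 Mb, 32.9 to 37.0 Mb and 29.6 to 34.0 Mb. Read depth is unknown, and the lack of a peak in a region does not show that the DNA there was closed. Young adult 3 and mature adult 1 stood apart with narrower peaks, with means of 487 and 495 bp, against 530 to 564 bp in the other libraries. Numbers were therefore tested scaled to the length of the list and unscaled, and "rose" or "fell" is written below only of what passed on both scales at an adjusted p under 0.05. Over all genes, the median log2 difference in peak number of young adult and mature adult from infant libraries was 0.13 and 0.14 scaled, and -0.25 and -0.31 unscaled. Numbers, covered lengths or widths of infants and adults are said below not to overlap in several places. The share of all genes or regions that separate likewise is not given, so such separation is not shown to be particular to the members. Summed peaks at 8 endothelial marker genes were 180 to 191 in infant, 158 to 175 in young adult and 145 to 171 in mature adult libraries, and Pecam1, Cdh5, Kdr and the other markers all had peaks. In cells pooled before sequencing, fewer cells with an accessible region and less access per cell cannot be told apart.

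RefSeq promoter entries (GRCm38.p6, the assembly of mm10) matched 4 of the 6 genes. The 250 bases before an annotated start are shown for the 3 Nr4a genes and for 1 of the 5 starts of Egr2, because these windows lie in or reach into the peaks at the genes' starts. Of the 5 Egr2 windows 4 lay fully in peaks of 9 of 9 libraries. Of these 4, 3 overlap each other, with the same CArG box and the same 2 matches of TGACG, and the first of them is shown. The other one held a CArG box and no match of TGACG. Capitals mark the 5 letters TGACG or, on the other strand, CGTCA, which are an arm of the cAMP response element bound by CREB, and in Egr2 also the CArG box bound by SRF.
Nr4a1, chr15:101266596-101266845, plus strand: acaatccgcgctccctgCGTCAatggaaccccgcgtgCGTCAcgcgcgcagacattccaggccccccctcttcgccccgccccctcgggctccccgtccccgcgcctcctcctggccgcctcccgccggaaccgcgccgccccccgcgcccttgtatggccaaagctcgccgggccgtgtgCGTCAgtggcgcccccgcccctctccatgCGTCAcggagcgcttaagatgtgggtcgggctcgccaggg
Nr4a2, chr2:57124004-57124253, minus strand: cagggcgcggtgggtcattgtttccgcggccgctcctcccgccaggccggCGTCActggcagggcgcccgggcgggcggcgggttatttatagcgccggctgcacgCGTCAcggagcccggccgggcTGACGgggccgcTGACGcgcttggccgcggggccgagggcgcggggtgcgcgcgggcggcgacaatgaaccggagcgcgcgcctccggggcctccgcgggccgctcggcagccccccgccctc
Nr4a3, chr4:48045055-48045304, plus strand: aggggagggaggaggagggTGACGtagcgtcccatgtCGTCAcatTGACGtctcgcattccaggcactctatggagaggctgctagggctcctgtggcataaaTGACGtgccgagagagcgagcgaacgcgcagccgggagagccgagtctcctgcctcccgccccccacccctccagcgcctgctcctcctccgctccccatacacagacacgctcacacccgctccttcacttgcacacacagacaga
Egr2, chr10:67537619-67537868, plus strand: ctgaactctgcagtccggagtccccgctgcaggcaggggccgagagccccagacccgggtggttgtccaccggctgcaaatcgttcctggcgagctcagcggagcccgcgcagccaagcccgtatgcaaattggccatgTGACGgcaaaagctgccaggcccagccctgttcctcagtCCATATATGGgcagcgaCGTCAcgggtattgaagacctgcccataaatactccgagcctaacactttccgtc

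The 3 Nr4a windows each held 4 matches of TGACG or CGTCA. Of all 32851 promoters of the table, 17.8% held at least 1 such match in the same 250 bases and 0.137% held at least 4. No Nr4a window held a CArG box or the full TGACGTCA. The Egr2 window held a CArG box whose first base lay 72 bases before the start, and 2 matches of TGACG, on opposite strands. A CArG box was in 1.47% and TGACGTCA in 1.55% of all promoters. Of the other motifs searched on both strands, AAAGGTCA (bound by NR4A monomers, 1.34% of promoters), TGANTCA (AP-1, 6.75%) and CCGGAAG (ETS, 6.91%) were in none of the 4 windows. GCGTGGGCG or GCGGGGGCG (EGR, 3.06%) was in the Nr4a1 window, where it overlapped GGGCGG (SP1, 32.7%). GGGCGG was in all 3 Nr4a windows, and TATAAA (12.4%) in that of Nr4a2. A full TGACGTCA would count as 2 matches of TGACG. These are matches of letters and were not tested as binding sites.

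Peaks covered all 250 bases of the Nr4a1, Nr4a2 and Egr2 windows in 9 of 9 libraries. At the Nr4a3 window they covered all 250 bases in the 3 infant libraries. The adult peaks stopped short of the start there, and covered 174, 174 and 169 bases in young adult and 176, 185 and 210 in mature adult libraries. The missing bases are those nearest that start, which lies inside the gene body as RefSeq bounds it. The width of the region over this start passed in neither comparison with infants, as given below.

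Nr4a3, the NR4A receptor also called NOR1, is known to be induced by VEGF in endothelial cells. The gene lies at chr4:48045078-48086447 and was the 1 member whose number of regions passed in adults against infants on both scales. It had 9, 8 and 8 regions with a peak in infant, 5, 4 and 4 in young adult and 4, 5 and 4 in mature adult libraries. No adult library reached the lowest infant library. As peaks, some of which divide a region, it had 9, 8 and 9 in infant, 6, 4 and 5 in young adult and 5, 6 and 5 in mature adult libraries. The number of peaks, the measure planned for this test, did not pass on both scales. Young adults differed from infants by -0.36 ± 0.14 (log2, SE, limma adjusted p = 0.0891) scaled and -0.75 ± 0.14 (adjusted p = 0.0145) unscaled, and mature adults by -0.14 ± 0.14 (adjusted p = 0.445) scaled and -0.65 ± 0.14 (adjusted p = 0.0163) unscaled. The number of its regions fell in young adult against infant libraries by 0.44 ± 0.10 (log2, SE, limma adjusted p = 0.00958) scaled and by 0.87 ± 0.12 (adjusted p = 0.00296) unscaled. In mature adult against infant libraries it fell by 0.33 ± 0.10 (adjusted p = 0.0298) scaled and by 0.87 ± 0.12 (adjusted p = 0.00218) unscaled. Counted in regions, 10.6% of 14551 genes fell on both scales in young adults and 14.9% in mature adults, so that Nr4a3 was 1 of many. Those that rose made up 0.928% and 1.21%, with no member among them. The young adult call passed on both scales without any 1 library. The scaled mature adult call was lost without infant 1, 2 or 3 or mature adult 1 or 3, at adjusted p of 0.0829, 0.0604, 0.0697, 0.0765 and 0.0925. Counting regions in place of peaks was chosen after the data had been seen.

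**Figure D1:**
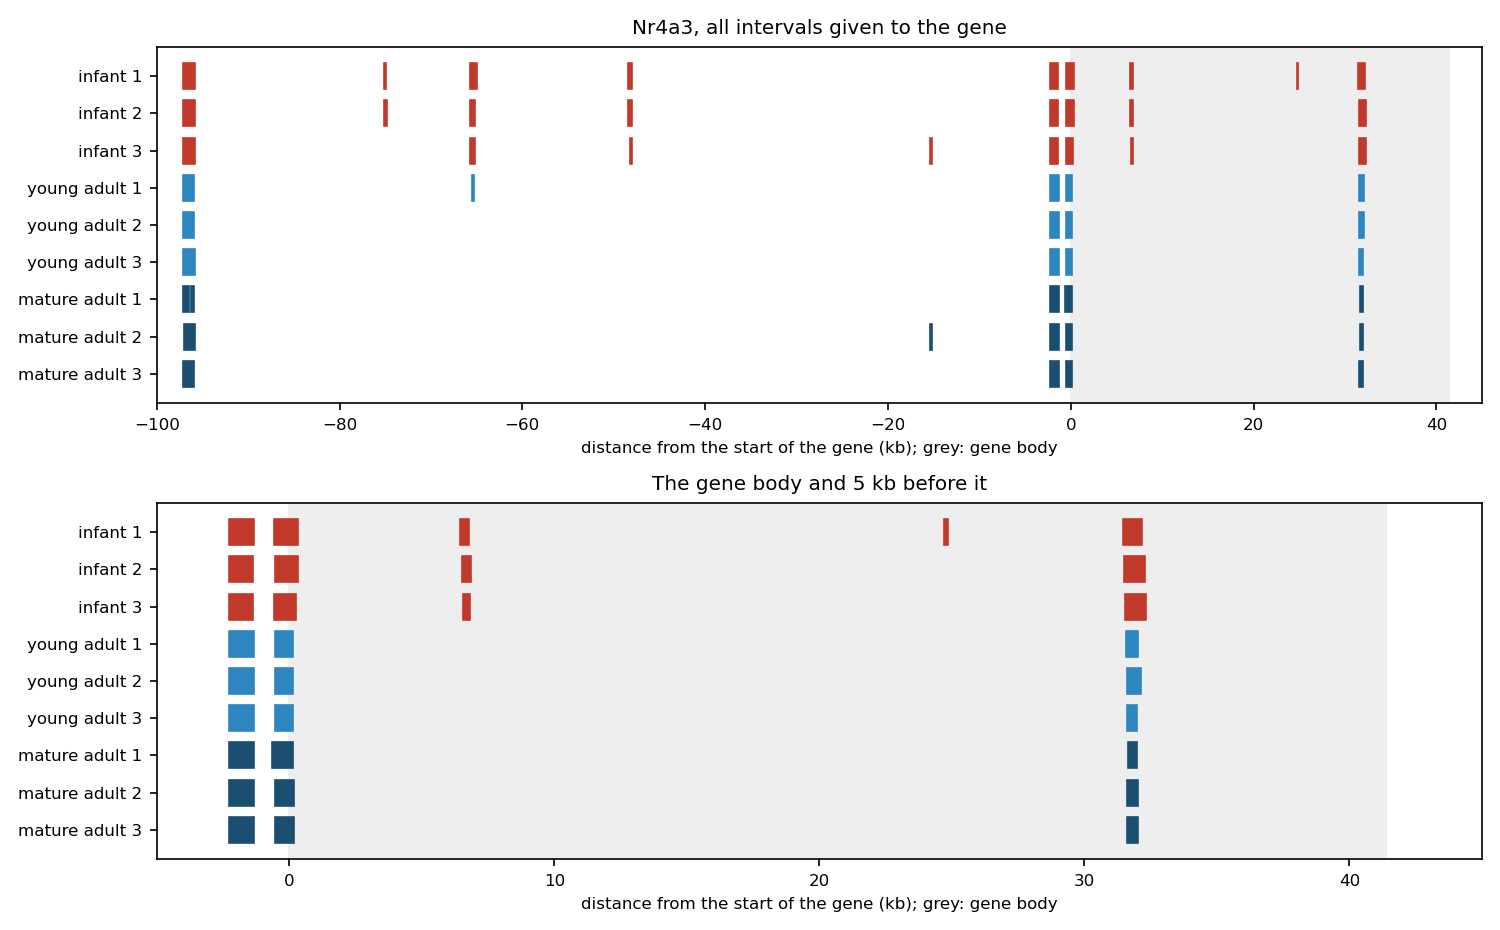
Peaks given to Nr4a3 in each library, by distance from the start of the gene in kb, with the gene body in grey; the upper panel shows all of them and the lower panel the gene body and 5 kb before it. The regions 48.2 kb before and 6.65 kb inside the gene carry bars in the 3 infant libraries and in no adult library.

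The regions that were missing in adults lay before the gene and in its body. At chr4:47996652-47997063, 48.2 kb before the start, the infant libraries covered 384, 379 and 161 bp and no adult library had a peak. At chr4:48051532-48051919, 6.65 kb inside the gene, they covered 324, 310 and 265 bp, again with no adult peak. A stretch at chr4:47979331-47980081, 65.4 kb before the start, was covered over 715, 574 and 603 bp in infants, and over 157 bp in young adult 1 alone among adults. Infant 1 and 2 also had a peak 75.0 kb before the start, of 240 and 329 bp. A peak of 150 bp, 16.6 kb from the upper end inside the gene, was in infant 1 alone. A further region of 150 bp, 15.3 kb before the start, had a peak in infant 3 and in mature adult 2. The shortest peak of every list was 150 bp wide, so the peaks of 150, 157 and 161 bp here lie at or near that floor.

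The 4 regions of Nr4a3 that had a peak in all 9 libraries included both at its start. The region 1.80 kb before the start, chr4:48042791-48043755, was nearly constant in width, at 927 to 951 bp in infant, 944 to 958 bp in young adult and 944 to 948 bp in mature adult libraries. The region over the start, chr4:48044409-48045418, covered 901, 888 and 802 bp in infant, 701, 698 and 689 bp in young adult and 821, 708 and 715 bp in mature adult libraries. Its log2 difference from infants was -0.31 (limma adjusted p = 0.0517) in young adults and -0.21 (adjusted p = 0.0892) in mature adults. After division by the library median it was -0.11 (adjusted p = 0.553) and 0.067 (adjusted p = 0.687), so it passed on neither scale. A far region at chr4:47947988-47949241, 96.5 kb before the start and inside the long non-coding RNA gene Gm46853, was covered over 1116 to 1239 bp in infant, 1047 to 1198 bp in young adult and 922 to 1061 bp in mature adult libraries. In the last region, chr4:48076542-48077399 inside the gene, peaks covered 698, 784 and 789 bp in infant, 460, 549 and 395 bp in young adult and 361, 403 and 425 bp in mature adult libraries. The infant widths did not overlap those of adults. This region narrowed in mature adult against infant libraries by a log2 difference of -0.93 ± 0.14 (SE, limma adjusted p = 0.00551), or -0.66 (adjusted p = 0.0126) after each library was divided by its median width. In young adults the difference was -0.70 ± 0.14 (adjusted p = 0.0239), and -0.50 (adjusted p = 0.0529) after division, so it did not pass on both scales.

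Covered length joins number and width. Nr4a3 covered 5593, 5430 and 4813 bp in infant, 3323, 3392 and 3129 bp in young adult and 3049, 3261 and 3145 bp in mature adult libraries. Unscaled, adults did not overlap infants. Scaled to the list, mature adults overlapped infants and young adults did not. On that scale Nr4a3 covered 4112, 4318 and 3995 bp in infant, 3582, 3602 and 3739 bp in young adult and 4046, 3766 and 3690 bp in mature adult libraries. Its covered length fell to 3281 ± 136 bp in young adult libraries, against 5279 ± 411 bp in infant libraries (SD, n = 3 each), a log2 difference of -0.18 ± 0.06 (SE, limma adjusted p = 0.0444) scaled and -0.66 ± 0.08 (adjusted p = 0.000728) unscaled. It was the 1 member that fell by this measure, where 12.5% of all genes fell and 0.948% rose. The scaled call was lost without infant 1, 2 or 3 (adjusted p = 0.0944, 0.140 and 0.0514), without young adult 1, 2 or 3 (0.110, 0.103 and 0.0540) and without mature adult 2 or 3 (0.0607 and 0.0557). With peaks within 10 kb of a gene only, the scaled difference was 0.037 (adjusted p = 0.712), so the scaled fall did not hold for peaks near the gene alone. In mature adult libraries the mean was 3152 ± 106 bp. The unscaled difference from infant libraries was -0.72 ± 0.08 (adjusted p = 0.000259) and the scaled one -0.11 ± 0.06 (adjusted p = 0.159), so no member fell there on both scales, against 19.0% of all genes, and none rose, against 1.21%.

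Markers of other cells moved with the loss at Nr4a3. Summed peaks at 8 mesenchymal and mural genes, such as the collagen gene Col1a1, were 69 to 73 in infant, 24 to 27 in young adult and 21 to 22 in mature adult libraries, and 5 of the 7 tested fell by number in each comparison with infants, where 9.26% of all genes fell in young adults and 13.8% in mature adults. Tbx5, a T-box factor of lung mesenchyme, had 13, 13 and 11 peaks in infant, 1, 1 and 2 in young adult and 0 in every mature adult library. Pdgfrb, a receptor gene of pericytes and fibroblasts, also fell in both, with 5, 4 and 5 peaks in infant, 1, 0 and 1 in young adult and 1, 1 and 0 in mature adult libraries. The collagen gene Col1a2 had 13, 14 and 14 peaks in infant, 4, 4 and 5 in young adult and 2, 2 and 3 in mature adult libraries. Epithelial genes summed to 25 to 31 peaks in infant, 12 to 19 in young adult and 13 to 14 in mature adult libraries, with Sftpc at 0 throughout. Of the 4 tested, the surfactant gene Sftpb fell in mature adults, with 8, 7 and 6 peaks in infant, 6, 3 and 3 in young adult and 2, 3 and 2 in mature adult libraries. Immune genes summed to 14 to 15 in infant, 10 to 16 in young adult and 10 in each mature adult library, with Itgam, Lyz2 and Cd68 at 0. Of the 4 tested, Ncf1, a subunit of the phagocyte oxidase, fell in mature adults, with 4 peaks in each infant, 3, 2 and 2 in young adult and 1, 2 and 2 in mature adult libraries. The part of other cells in the loss at Nr4a3 was not tested.

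Nr4a2, the receptor also known as Nurr1, lies on the minus strand at chr2:57106830-57124003 and moved the other way by number. It had 5, 5 and 6 peaks in infant, 6 in every young adult and 7 in every mature adult library. Infant and mature adult libraries did not overlap. The number rose in mature adult against infant libraries by 0.87 ± 0.09 (log2, SE, limma adjusted p = 0.000135) scaled and by 0.37 ± 0.06 (adjusted p = 0.0069) unscaled. It was the 1 member that rose, where 1.44% of genes rose and 13.8% fell. None of the members fell. In young adults the difference was 0.55 ± 0.09 (adjusted p = 0.00194) scaled and 0.16 ± 0.06 (adjusted p = 0.135) unscaled, so no member rose there, where 1.13% of genes rose, and none fell, where 9.26% did.

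The higher number lay in the same stretches of DNA, listed as more and shorter peaks. Each of the 9 libraries had a peak in the same 5 regions of Nr4a2, and in regions the unscaled difference was 0.00 (adjusted p = 1.0). At chr2:57114241-57115324, inside the gene, each infant library had 1 peak of 1083 bp with the same bounds. Each mature adult library had 2 peaks there instead, of 239 and 466 bp, 369 and 433 bp, and 355 and 369 bp. Young adult 1 and 2 had 1 peak, of 929 and 984 bp, and young adult 3 had 2. At chr2:57102057-57103525, 4.04 kb past the end of the gene, infant 1 and 2 had 1 peak, of 970 and 1305 bp, while infant 3 and every mature adult library had 2. The covered bases were fewer: Nr4a2 covered 5155, 4889 and 4502 bp in infant, 4306, 4177 and 3395 bp in young adult and 3864, 3835 and 3825 bp in mature adult libraries. That difference ran opposite ways on the 2 scales, with a log2 difference of mature adult from infant of 0.29 ± 0.08 (adjusted p = 0.0126) scaled and -0.32 ± 0.10 (adjusted p = 0.023) unscaled.

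**Figure D2:**
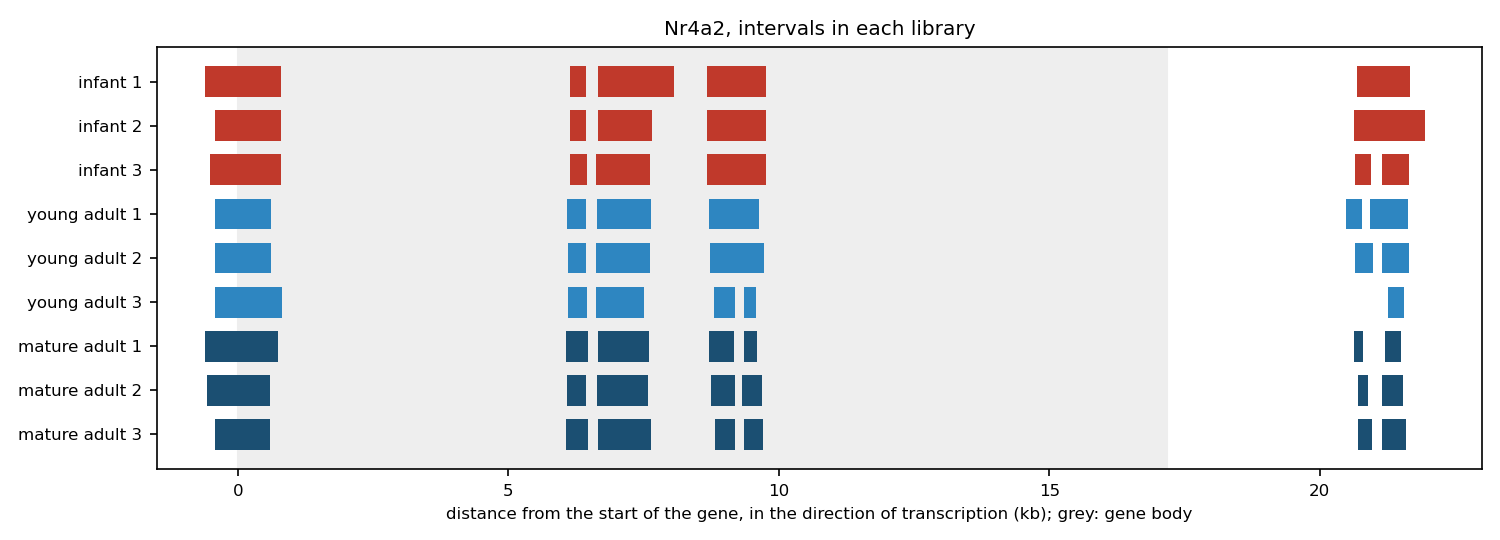
Peaks given to Nr4a2 in each library, by distance from the start of the gene in the direction of transcription in kb, with the gene body in grey. Between 8 and 10 kb, each infant library has 1 wide bar and each mature adult library has 2 narrow bars.

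The remaining regions of Nr4a2 were 1 peak in every library. That over the start, chr2:57123194-57124611, also lies in the overlapping gene LOC105244150. It covered 1395, 1226 and 1299 bp in infant, 1024, 1027 and 1232 bp in young adult and 1356, 1161 and 1019 bp in mature adult libraries, and the ages overlapped. A smaller region at chr2:57117524-57117935 was wider in every adult than in every infant library, with 285 to 316 bp in infant, 330 to 360 bp in young adult and 348 to 404 bp in mature adult libraries. Its log2 difference of mature adult from infant was 0.35 ± 0.11 (adjusted p = 0.0539), and 0.63 (adjusted p = 0.0244) after division by the library median, so it did not pass on both.

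**Figure D3:**
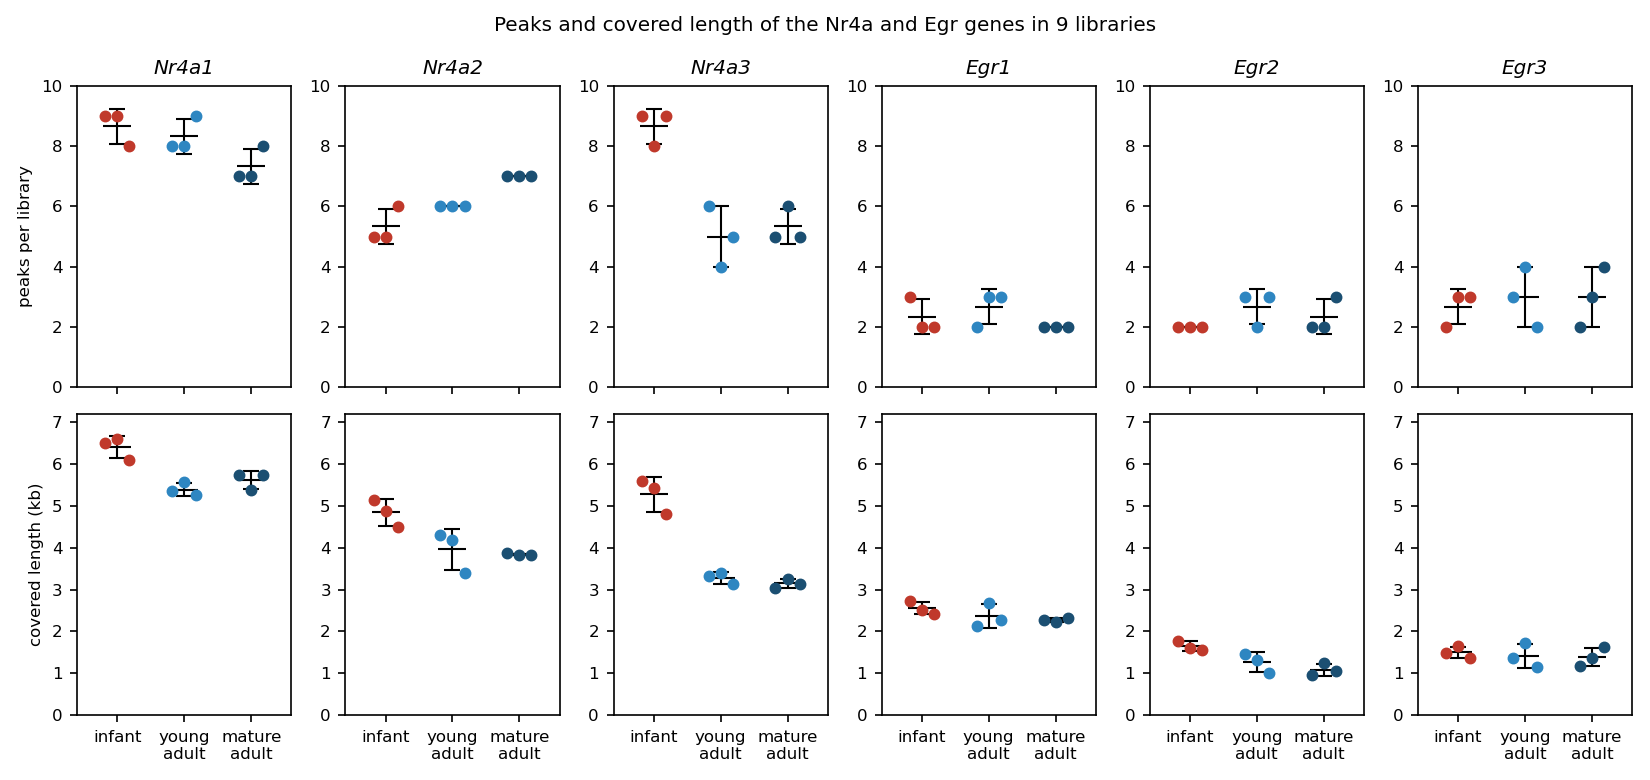
Peaks per library (upper row) and covered length in kb (lower row) of the 6 genes at 3 ages; points are libraries, lines the mean and SD of 3. Nr4a3 has 8 to 9 peaks in infant and 4 to 6 in adult libraries, and Nr4a2 has 7 in each mature adult library.

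Nr4a1, also called Nur77, a receptor that VEGF and inflammatory stimuli induce, had the most peaks of the 6 summed over libraries. It lies at chr15:101253902-101274795 and had 9, 9 and 8 peaks in infant, 8, 8 and 9 in young adult and 7, 7 and 8 in mature adult libraries. Of its 8 regions, 7 had a peak in all 9 libraries. The widest, chr15:101266079-101268102, holds the promoter window shown above. It was listed as 2 peaks in infant, young adult and mature adult 3 libraries and as 1 peak of 1892 and 1922 bp in mature adult 1 and 2. Here the lists of mature adult 1 and 2 joined what the infant lists divided, the reverse of Nr4a2. In bases the region covered 1754, 1857 and 1734 bp in infant, 1690, 1687 and 1568 bp in young adult and 1892, 1922 and 1753 bp in mature adult libraries.

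Peaks at both ends of Nr4a1 were shorter in every adult than in every infant library, but passed on both scales at neither end. At chr15:101253615-101254832, over its lower end, peaks covered 1135, 1114 and 1200 bp in infant, 881, 1002 and 887 bp in young adult and 816, 773 and 961 bp in mature adult libraries. At chr15:101273821-101274740, close to its upper end, they covered 918, 919 and 672 bp in infant, 503, 384 and 368 bp in young adult and 635, 279 and 435 bp in mature adult libraries. The difference of mature adult from infant was -0.44 ± 0.09 (adjusted p = 0.0158) at the lower end and -0.96 ± 0.29 (adjusted p = 0.0564) at the upper end. After division by the library median these were -0.17 (adjusted p = 0.233) and -0.68 (adjusted p = 0.13). The whole covered length of Nr4a1 was 5731, 5382 and 5745 bp in mature adult and 6511, 6610 and 6100 bp in infant libraries, and its test ran opposite ways on the 2 scales.

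Egr1, the zinc finger factor of the early response to injury and shear, lies at chr18:34861207-34864956. The widest peak of the 6 genes in every library lay across its lower end, at chr18:34859710-34861727. That peak was 1992, 1986 and 1985 bp wide in infant, 1959, 1966 and 1711 bp in young adult and 1965, 1928 and 1933 bp in mature adult libraries. The infant widths lay above all adult widths, and the difference of mature adult from infant was -0.034 ± 0.054 (adjusted p = 0.667). After division by the library median the difference was 0.24 (limma adjusted p = 0.0292), so its sign turned with the scale. A second region in all libraries, chr18:34867443-34867972, lies 2.75 kb above the gene. It covered 524, 529 and 442 bp in infant, 180, 312 and 269 bp in young adult and 311, 308 and 383 bp in mature adult libraries. Young adults differed from infants by -1.01 ± 0.21 (adjusted p = 0.0314), and by -0.81 (adjusted p = 0.0656) after division by the median. Egr1 had 2 or 3 peaks in every library.

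Egr2, also called Krox20, lies at chr10:67534469-67542188 and had both of its constant regions inside the gene. The first, chr10:67536010-67536416, covered 406, 360 and 359 bp in infant, 259, 273 and 206 bp in young adult and 205, 198 and 251 bp in mature adult libraries, and adults did not overlap infants. It narrowed in mature adult against infant libraries by a log2 difference of -0.79 ± 0.15 (SE, limma adjusted p = 0.0122), or -0.51 (adjusted p = 0.0346) after division by the median. The second, chr10:67536617-67537995, holds the promoter window with the CArG box. It covered 1370, 1237 and 1192 bp in infant, 1045, 1043 and 809 bp in young adult and 760, 1038 and 799 bp in mature adult libraries. Its difference of mature adult from infant was -0.56 ± 0.14 (adjusted p = 0.0331), and -0.28 (adjusted p = 0.0754) after division. Egr2 had 2 or 3 peaks in every library, the third being a split of the second region or, in young adult 1, a peak 30.9 kb below the gene.

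Egr3, which shares targets with Egr1, lies at chr14:70077317-70082613 and had all 6 of its regions outside the gene body. The 2 regions in all 9 libraries lay 2.34 kb and 0.453 kb below its lower end. The farther, chr14:70074423-70075525, covered 1102, 1087 and 835 bp in infant, 837, 852 and 811 bp in young adult and 826, 829 and 825 bp in mature adult libraries. The nearer, chr14:70076666-70077062, covered 369 to 385 bp in infant, 334 to 366 bp in young adult and 319 to 357 bp in mature adult libraries. Neither passed in either comparison with infants, at adjusted p of 0.0915 to 0.525 with widths as listed. The other 4 regions each had a peak in 2 libraries. Egr3 covered 1183 to 1624 bp in mature adult and 1367 to 1639 bp in infant libraries, which overlapped.

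**Figure D4:**
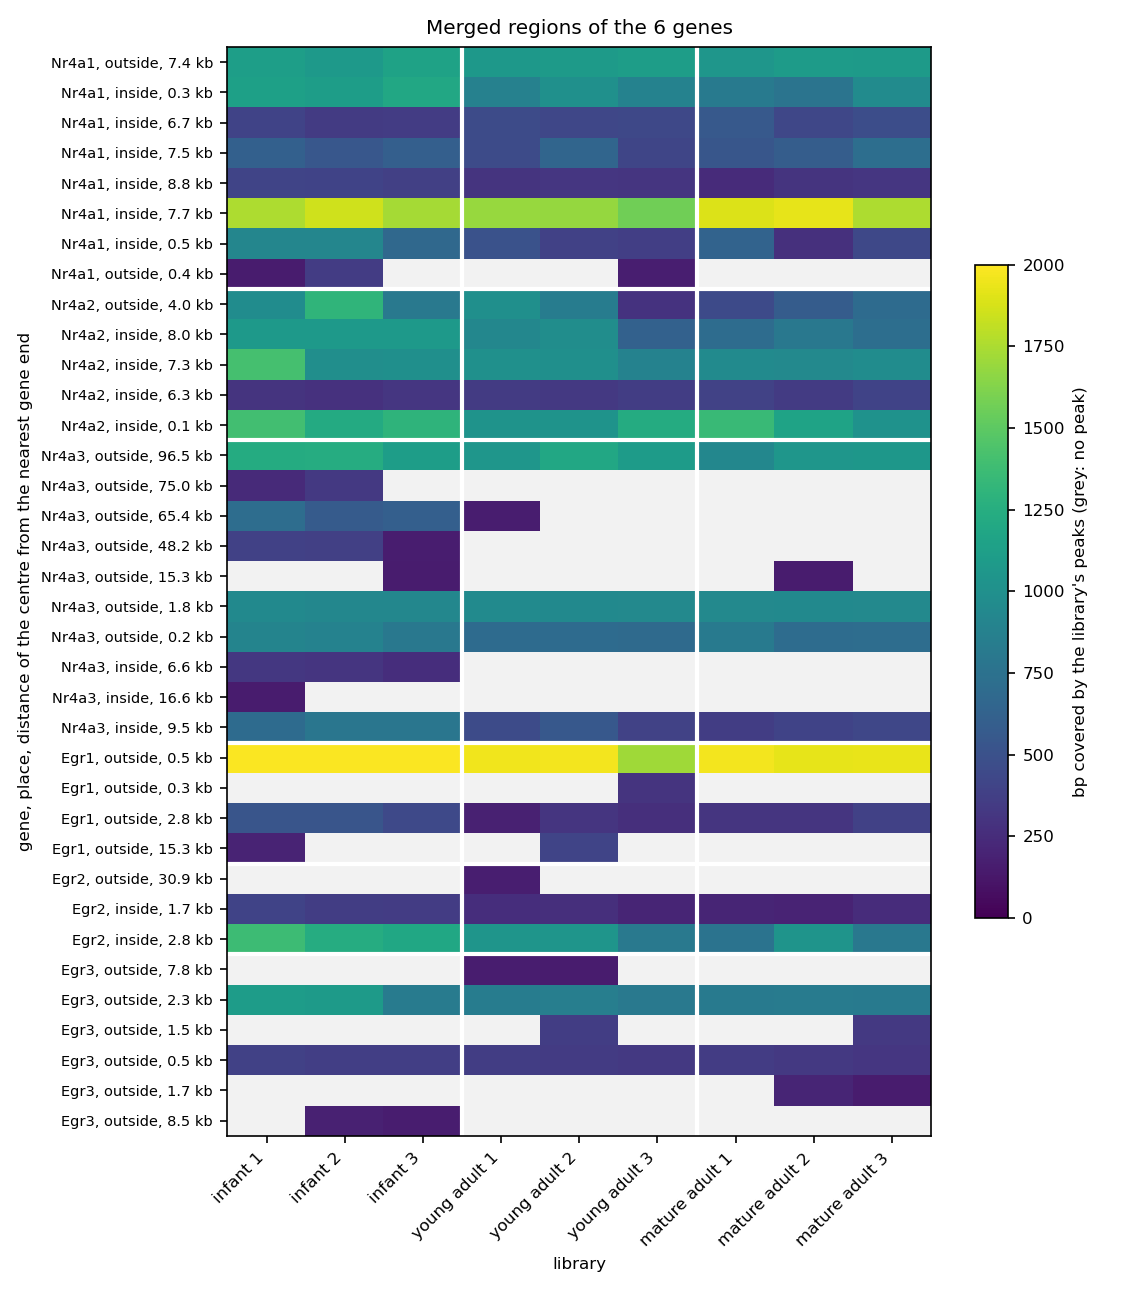
Covered bp (colour) in each of the 36 regions (rows, by gene and by distance of the centre from the nearest gene end) in 9 libraries; grey marks no peak. Of the rows, 22 are filled in all libraries, and the 2 filled in the infant columns alone belong to Nr4a3.

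Across the 6 genes most regions were shared by all ages. Of their 36 regions, 22 (61.1%) had a peak in all 9 libraries, against 32.4% of all regions. There were 2 regions (5.56%) with a peak in all 3 infant and no adult library, against 9.70% of all regions, and both were at Nr4a3. No region had a peak in all 6 adult and no infant library, against 0.686%, and 3 (8.33%) had one in a single library, against 24.4%. All 6 genes kept a region within 0.5 kb of a gene end or across an annotated start in all 9 libraries. Peaks more than 10 kb outside a gene numbered 14 in infant, 8 in young adult and 7 in mature adult libraries, summed over 3 libraries each. The lists themselves were shorter in adults, and the same count over all genes is not given. The median width of the members' peaks was 636 bp in infant, 510 bp in young adult and 466 bp in mature adult libraries. Medians of the whole lists were 433 to 462 bp in infant, 396 to 442 bp in young adult and 406 to 439 bp in mature adult libraries.

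Widths could be compared in the 22 regions with a peak in every library, among 41144 such regions. With widths as listed, 6 member regions were narrower in mature adult than in infant libraries, where 16.4% of all regions were, and 3 in young adult libraries, where 5.80% were. On both scales 2 narrowed in mature adults, those of Nr4a3 and Egr2 described above, where 6.81% of all regions narrowed. None widened, where 1.92% did. In young adults none narrowed or widened on both scales, where 2.09% and 1.12% did, although 7 had an unadjusted p under 0.05 after division by the median and 10 as listed. After division by the median alone, 7 member regions passed in mature adults, and 5 of these were wider, as were 14.0% of all regions. They were 2 of Nr4a1 and 1 each of Nr4a2, Nr4a3 and Egr1. The median difference of the 22 regions was -0.26 in young adults and -0.23 in mature adults as listed, against -0.13 and -0.19 over all regions. After division it was -0.061 and 0.043, against 0.068 and 0.089 over all regions, so its sign in mature adults turned with the scale.

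**Figure D5:**
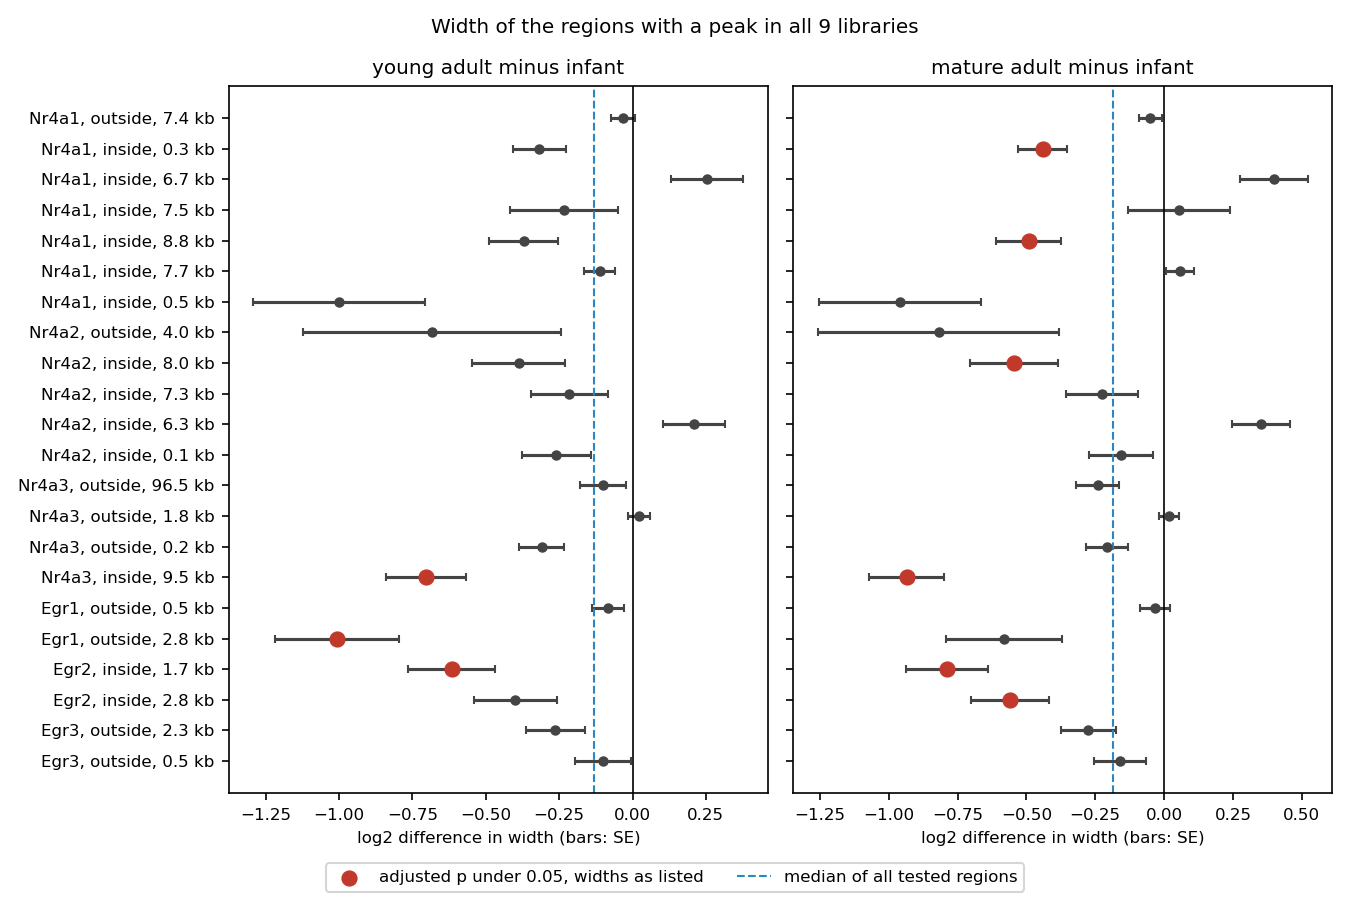
Log2 difference in width with its SE in the 22 regions with a peak in all libraries; red points passed at an adjusted p under 0.05 with widths as listed, and the dashed line is the median of all tested regions. The Nr4a3 region 9.5 kb from the gene's end lies farthest to the left among the 6 that passed in mature adults, at -0.93.

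Scaling to a shorter list raises a gene whose number does not differ, and on the scaled measures alone several members stood higher in adults. By scaled number 4 members were higher in young adults (25.6% of genes were) and 3 in mature adults (30.0% of genes). By scaled covered length 2 were higher in young adults (26.1% of genes) and 4 in mature adults (34.1% of genes). The unscaled measures alone ran the other way. By unscaled number 1 member was lower in young adults (17.5% of genes were), and in mature adults 1 was lower (29.4% of genes) and Nr4a2 higher. By unscaled covered length 3 were lower in young adults (39.1% of genes) and 4 in mature adults (55.9% of genes), and none was higher. The members' median difference in number was 0.49 in young adults and 0.43 in mature adults scaled, and 0.14 and -0.020 unscaled.

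Between mature and young adults no member passed. By number 0.0969% of genes rose and 0.644% fell, by covered length 0.00692% and 0.533%, and by width 0.00729% of regions widened and 0.0535% narrowed. At an unadjusted p under 0.05, limma gave 1 member by number on each scale, 1 by scaled and 0 by unscaled covered length, and 3 regions by width divided by the median and 1 as listed.

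Among 22 other immediate early genes, 21 could be tested and 1 rose by number, in both comparisons with infants, where 1.13% and 1.44% of all genes rose. That was Csrnp1, a nuclear factor induced by axin, with 4, 5 and 5 peaks in infant, 7, 8 and 7 in young adult and 7, 9 and 9 in mature adult libraries. None fell by number, where 9.26% and 13.8% of all genes fell. By covered length 1 fell in each comparison, where 12.5% and 19.0% of all genes fell. Fos had 16, 18 and 19 peaks in infant, 17, 16 and 12 in young adult and 12, 13 and 11 in mature adult libraries, and did not pass on both scales. Jun had 13, 13 and 14 peaks in infant, 15, 15 and 17 in young adult and 14, 17 and 16 in mature adult libraries. The list's unscaled median was -0.053 in young adults and -0.034 in mature adults, against -0.25 and -0.31 over all genes. Egr4, the remaining Egr family gene, had 2, 2 and 1 peaks in infant and 0 in every adult library, and fell below the filter for testing.

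Of 19 genes that act before the members, 1 fell by number in young adults and 4 in mature adults, and none rose. Over all genes 9.26% fell in young adults and 13.8% in mature adults. By covered length 3 fell in each comparison with infants, where 12.5% and 19.0% of all genes fell. Prkcb, a protein kinase C gene, had 14, 16 and 14 peaks in infant, 5, 8 and 4 in young adult and 3, 3 and 1 in mature adult libraries. Its relative Prkca fell in both comparisons, with 20, 18 and 13 peaks in infant, 7 in each young adult and 5, 8 and 9 in mature adult libraries. Mrtfa, a coactivator of SRF, had 14, 16 and 16 peaks in infant, 10, 10 and 7 in young adult and 8, 6 and 7 in mature adult libraries. The fourth was Creb1, the gene of the cAMP response factor, named here after its values were seen, with 10, 11 and 12 peaks in infant, 8, 7 and 7 in young adult and 6, 5 and 6 in mature adult libraries. Srf itself had 2 peaks in all 9 libraries. The list's unscaled median was -0.26 in young adults and -0.50 in mature adults.

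Of 9 tested partner and repressor genes, 1 fell by number in each comparison with infants, near the shares of 9.26% and 13.8% over all genes. By covered length 0 fell in young adults and 3 in mature adults, where 12.5% and 19.0% of all genes fell. Rxra, the dimer partner of NR4A1 and NR4A2, fell in young adults, with 28, 22 and 23 peaks in infant, 13, 16 and 13 in young adult and 14, 14 and 12 in mature adult libraries. Hdac4, a histone deacetylase, fell in mature adults, with 13, 8 and 9 peaks in infant, 6 in each young adult and 4, 5 and 4 in mature adult libraries. The EGR corepressor gene Nab1 had 3, 4 and 3 peaks in infant, 2, 1 and 1 in young adult and 2, 1 and 1 in mature adult libraries. Nab2 had 4 in each infant, 3 in each young adult and 3, 3 and 2 in mature adult libraries, and neither gene passed on both scales. This list's unscaled median was -0.36 in young adults and -0.66 in mature adults.

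Of 12 genes reported as targets of EGR or NR4A factors, the adhesion gene Cd44 fell in both comparisons, with 18, 17 and 17 peaks in infant, 6, 10 and 8 in young adult and 8, 7 and 8 in mature adult libraries. Pdgfa fell in mature adults, with 12, 12 and 13 peaks in infant, 7, 8 and 7 in young adult and 4, 4 and 7 in mature adult libraries. The counts of 1 and 2 genes of 12 lie near the shares of 9.26% and 13.8% over all genes. By covered length 3 fell in young adults and 4 in mature adults, where 12.5% and 19.0% of all genes fell. The unscaled median of these 12 was -0.48 in young adults and -0.41 in mature adults. The mesenchymal marker genes that moved in the same direction are given above with Nr4a3.

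Genes with the most similar scaled covered length across the 9 libraries were found by Pearson correlation among genes with a mean of at least 3 peaks. The measure shares the scaling to each list, so its values are a description. Nr4a1 was nearest to Clic1 (r = 0.986) and Pdlim2 (0.983), Nr4a2 to Git1 (0.970) and Dhx15 (0.961), and Nr4a3 to Npas3 (0.952) and Tmem131l (0.942). Egr1 was nearest to Actb (0.981) and Myadm (0.975), Egr2 to Tsc22d4 (0.934) and Slc44a2 (0.933), and Egr3 to Dgkh (0.973) and Cavin2 (0.959). Unscaled, Npas3 covered 11486, 11817 and 9412 bp in infant, 5002, 5025 and 5816 bp in young adult and 5350, 5470 and 5358 bp in mature adult libraries. Npas3 was picked by its likeness to Nr4a3, so a similar pattern over the ages follows from the choice and is no separate result.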

How the data were processed

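Per the file headers, each of the 9 deposited lists gives the chromosome, start and end of its peaks, without height, score, p-value or read number, so the values the authors deposited are positions. Per the submitters' processing notes, cutadapt, Bowtie2 and Picard were used on the mm10 build. Which program called the peaks, at what threshold, and whether reads were shifted for the transposase is not given in the sources used here. Since no source says how starts are counted, positions may be off by 1 bp.

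An interval filled 1 to 14 rows of a list, and 31.0% to 38.9% of intervals were repeated; each was counted once. Gene bodies came from the RefSeq table of GRCm38.p6, which gives no exons or introns. The number of peaks per gene was tested as log2(number + 0.5) and the covered length as log2(bp + 150), in genes averaging 1 peak or more per library. Region width was tested as log2(bp) in regions with a peak in all 9 libraries. Each used limma 3.58.1 in R 4.3.3, a moderated test with a mean-variance trend and age as the only term, with Benjamini-Hochberg adjustment over all genes or regions and a threshold of 0.05. The fits of peak number (scaled) and of region width (as listed) in mature adult against infant libraries were tested on simulated data. Covered length, the young adult comparisons and the rule of passing on both scales were not. The outcome is not given here. Other steps ran in Python 3.11.15 (numpy 2.4.6, pandas 2.3.3, matplotlib 3.10.9).

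The 6 members and the other gene lists were chosen with earlier results of these data known. All 6 members are named. Of another list a gene is named where it passed on both scales, at most the 3 with the largest scaled change, plus Nab1, Nab2, Egr4, Fos, Jun and Srf. Alternatives covered scaling, repeated rows, reach around genes, equal list lengths, filters, added constants, the trend, merging, regions in place of peaks, the replicate number and each library left out.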

Additional observations from a re-analysis of the deposited data

How the results depend on the processing

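The Nr4a3 and Egr2 regions that narrowed in mature adults passed in all 15 width alternatives run, with log2 differences from -0.99 to -0.66 and from -0.89 to -0.51. Division by the median was a single setting among these, run with all 9 libraries. The other settings took widths as listed, so passing on both scales was not tried with libraries left out. The rise of Nr4a2 by number passed in 19 of 21 alternatives, from 0.00 to 0.97, and was lost with repeated rows kept (0.31) and with unscaled regions (0.00). Apart from the unscaled settings, the alternatives for number and covered length of peaks were run on the scaled measure alone. On that measure a gene with a constant number can also pass. Srf did so in mature adults with 2 peaks in all 9 libraries (limma adjusted p = 0.000376). The 19 passes of Nr4a2 are therefore no measure of how firm its rise is. The fall of Nr4a3 by covered length in young adults passed in 5 of 19. Its fall in regions passed in 21 of 21 in young adults and 15 of 21 in mature adults. Those 21 varied only the scale and the libraries left out, and reach, repeated rows and the other settings were not run for regions. With peaks within 10 kb of a gene only, its scaled number of peaks differed by -0.086 (limma adjusted p = 0.410) in young adults. In mature adults it differed by 0.022 (adjusted p = 0.820). The cause of a changed call was not tested. By scaled number, 4 members passed in young adults, all higher. Unscaled, with rows as deposited and with unscaled regions no higher call was left, and 1 member was lower. With equal numbers of the widest peaks 2 passed, 1 higher and 1 lower; within 50 kb and without young adult 3 and mature adult 1 it was 2, and without single libraries 2 to 4. In mature adults 3 passed, all higher. Rows as deposited and unscaled regions gave 1 lower and none higher, unscaled number 1 higher and 1 lower, widest peaks 1 higher, and fits without single libraries 1 to 3 higher. By scaled covered length, 2 were higher and 1 lower in young adults, and 4 higher in mature adults. Unscaled, the calls turned to 3 lower and 4 lower, with none higher. In young adults 0 passed with rows as deposited and widest peaks, 1 without the trend, 5 without young adult 3 and mature adult 1, and 0 to 4 without single libraries; in mature adults 2 passed with rows as deposited and widest peaks, both higher. By width, 3 regions were narrower in young adults, against 0 after division by the median, 1 without young adult 3 and mature adult 1, and 0 to 4 without single libraries. In mature adults 6 were narrower. After division by the median 7 passed, 5 wider and 2 narrower, without the trend 2 wider and 5 narrower, and without single libraries 2 to 7 passed, all narrower except 2 wider without mature adult 2. The 2 infant-only regions became 1 with widest peaks and 2 to 3 without single libraries.

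Signs turned as follows. Unscaled, the number of Nr4a1 was -0.053 in young adults and -0.23 in mature adults, and that of Egr1 -0.16 in mature adults. Unscaled regions gave -0.060 and -0.12 for Nr4a1 and -0.16 for Egr1. Unscaled covered length in young adults was -0.24 for Nr4a1, -0.29 for Nr4a2, -0.10 for Egr1, -0.35 for Egr2 and -0.094 for Egr3; in mature adults it was -0.18, -0.32, -0.15, -0.54 and -0.10 for the same genes. Widest peaks gave -0.053 and -0.17 for the number of Nr4a1 and -0.18 and -0.23 for the covered length of Egr2 in young and mature adults. Rows as deposited gave a covered length of -0.37 and -0.54 for Egr2 and, in mature adults, -0.10 for Nr4a2. Within 10 kb, Nr4a3 had 0.022 by number in mature adults and 0.037 and 0.15 by covered length in young and mature adults. Within 50 kb, covered length was 0.055 and 0.17 for Nr4a3, -0.12 and -0.19 for Egr2 and, in mature adults, -0.012 for Egr1, and the number of Egr2 in mature adults was -0.044. Covered length of Egr2 in mature adults ranged from -0.032 without mature adult 2 to 0.063 without mature adult 3 in fits without single libraries.

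Same-numbered libraries correlated in their deviations from the age means by -0.167 to 0.166, and the most alike pair was young adult 3 and mature adult 1 (0.285), so the numbers were not treated as pairs. With a replicate block, 3 and 2 members passed by number and 1 and 4 by covered length in young and mature adults, and 0 and 4 regions by width. Depth limits what a missing peak can show.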
